A study of Mus musculus with 6 samples.

Results

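Proteoglycans are proteins that carry long sulfated sugar chains, and the transcripts of 10 of their core proteins were followed here in mouse lung tumour cells with and without Lkb1. The 10 genes, of 55487 genes in the deposited table, were the 2 hyalectans Acan and Vcan, the testicans Spock1, Spock2 and Spock3, the syndecans Sdc1 and Sdc4, the glypicans Gpc1 and Gpc4, and Agrn. They were selected by gene name, and the selection was made with results of this genotype contrast known. The values that chose them are therefore given as a description, with no test. Tumour cells were sorted from lungs by GFP, without CD45-positive cells, 11 weeks after the tumours were started, and their RNA was sequenced in bulk. The sgNeo group holds 3 libraries labelled Lkb1 wildtype KP tumour, and the sgLkb1 group holds 3 libraries labelled Lkb1 mutant KP tumour. KP is the labels' name for the tumour model, and both groups carry it. Guide RNAs named sg direct the Cas9 nuclease, Neo is a control target, and Lkb1 (gene symbol Stk11) encodes a kinase that activates AMPK and related kinases. The labels give the groups as tumours and do not say which cells were edited, how many animals each library holds, or the animals' strain or age. They also do not say that replicates came from separate animals, so p-values measure the spread between these libraries, which may be technical.

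A proteoglycan is made in steps. Xylosyltransferases attach a sugar to serines that are followed by glycine in the core protein, a short linker is built on it, and either heparan sulfate or chondroitin sulfate is polymerised, sulfated and trimmed. Syndecans span the membrane and glypicans are held by a lipid anchor, and both bind growth factors and morphogens through their chains. Agrin and perlecan sit in basement membranes, aggrecan and versican bind hyaluronan through their G1 domain, and testicans are secreted calcium-binding proteins.

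Library totals ran from 26007503 to 28986526 counts in sgNeo and from 29613678 to 41729299 in sgLkb1, so that 3 counts were worth 0.12 CPM (counts scaled to the standard per-library total, on TMM-scaled library sizes) in each sgNeo library and 0.073 to 0.086 CPM in sgLkb1. The targeted gene Stk11 stood at 68.4, 33.4 and 82.7 CPM in sgNeo replicates 1 to 3 and at 23.5, 25.6 and 25.3 CPM in sgLkb1. The groups did not overlap, and Stk11 fell by 1.31 ± 0.30 on the log2 scale (SE; edgeR quasi-likelihood test, adjusted p = 0.023). The call was lost when any library but sgNeo replicate 2 was left out (highest adjusted p 0.0757). Ptprc, which encodes CD45, was between 4.36 and 10.4 CPM in the 6 libraries. Of the 15978 genes that passed the filter on low counts, 15.7% were called at an adjusted p under 0.05, 7.05% as higher in sgLkb1 and 8.60% as lower. Those were 1127 higher and 1374 lower, and they became 2191 higher and 896 lower when libraries were scaled to their total counts, where the median gene stood at 0.26 on the log2 scale instead of 0.018. The count of 2501 calls fell to 1325, 1129, 1587 and 1529 without sgNeo replicate 1, 2 or 3 or sgLkb1 replicate 2.

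Among the 10 core proteins the levels spanned from no count to 1165 CPM. Acan, Spock3 and Gpc1 were higher in every sgLkb1 library than in any sgNeo library. Sdc4 was lower in every sgLkb1 library, and the other 5 genes with counts in both groups overlapped. Over all genes tested 16.3% were higher in every sgLkb1 library, 20.3% were lower in every one, and 36.5% did not overlap in either direction. The members' 4 of 9 is given as a description. Of the 9 genes that passed the count filter 3 were called higher and 0 lower, beside 7.05% and 8.60% of all genes tested. Spock1 did not pass the filter. Because the genes were chosen on this contrast, nothing is read from that count either, which ran from 2 to 5 as each library was left out.

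**Figure D1:**
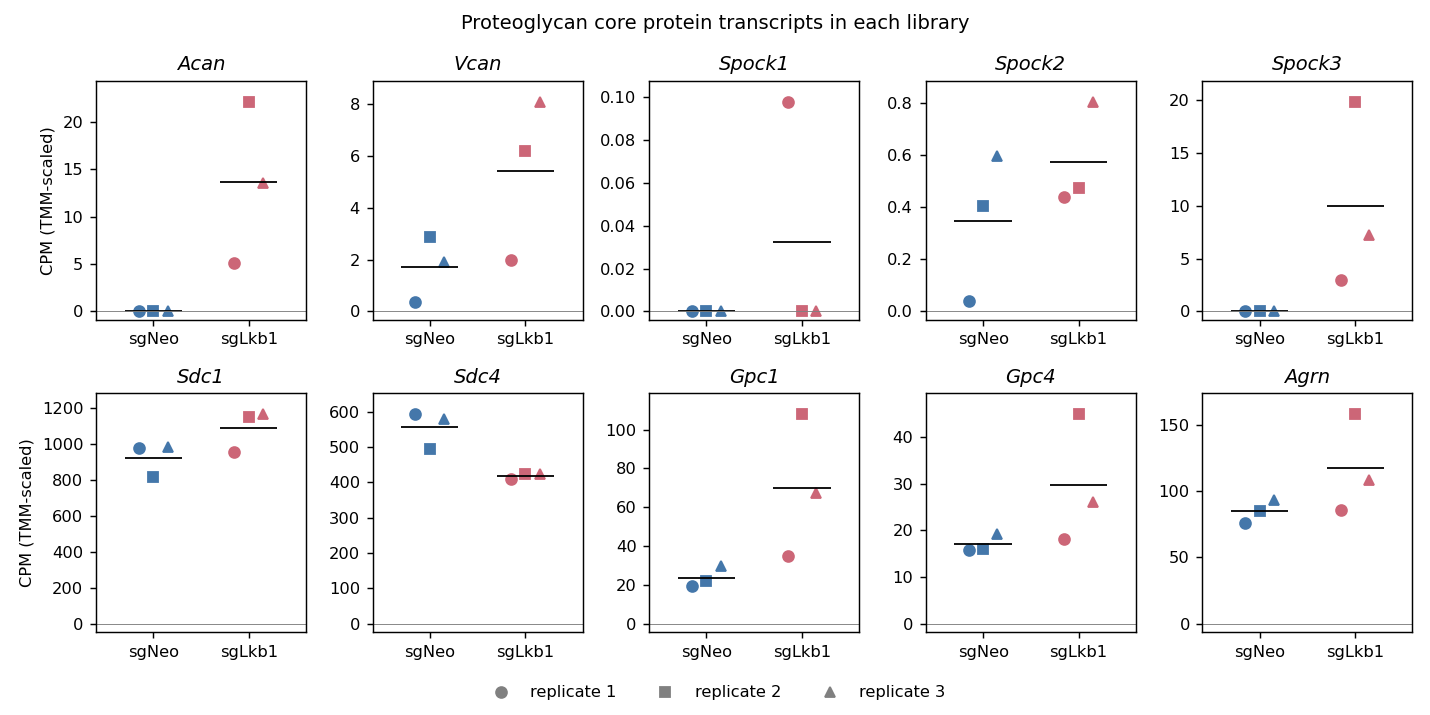
TMM-scaled CPM of each of the 10 core proteins (vertical axes, linear and different for each gene) in the 3 sgNeo libraries (blue) and the 3 sgLkb1 libraries (red); marker shapes give the replicate number and horizontal lines the group means. Acan and Spock3 are at or near 0 in sgNeo, Sdc4 is lower in all 3 sgLkb1 libraries, and sgLkb1 replicate 2 is the highest library for 5 genes.

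Aggrecan, encoded by Acan (GRCm38 chromosome 7, 79053483 to 79115099, plus strand), is the large chondroitin sulfate proteoglycan of cartilage, where its chains hold water. Its counts were 0, 2 and 1 in sgNeo replicates 1 to 3 and 211, 842 and 474 in sgLkb1 replicates 1 to 3. That is 0, 0.081 and 0.040 CPM against 5.16, 22.1 and 13.6 CPM. All 3 sgLkb1 libraries were far above all sgNeo libraries, and they differed among themselves by 4.28 times, replicate 2 being the highest. The pooled ratio was 334 with a 95% exact counting interval of 114 to 1622, which covers counting error only. That ratio rests on 3 counts in sgNeo. Leaving out sgNeo replicate 2 gave 671, leaving out sgNeo replicate 1 gave 223, and leaving out sgLkb1 replicate 2 gave 225.

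Serine-glycine pairs are shown for the genes described here because they are the places where chains can start. They were counted as serine codons followed by glycine codons in the longest complete coding sequence (GENCODE vM21, GRCm38). The Acan coding sequence held 122 such pairs in 2132 codons, or 57.2 per 1000 codons. Over the 13754 tested genes with a complete coding sequence the median was 5.03 per 1000 and the 90th percentile 11.1. Gpc1, Agrn, Vcan, Gpc4 and Spock3 lay between these values, at 6.88 to 10.8 per 1000. Spock1 lay below the median, at 4.52. The densest window of 30 codons in Acan, codons 1245 to 1274, holds 7 pairs, in capitals below.
Acan, codons 1245 to 1274: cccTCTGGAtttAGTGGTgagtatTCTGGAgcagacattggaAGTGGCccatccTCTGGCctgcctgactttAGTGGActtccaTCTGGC
A pair is a place where a chain may be added, and whether it carries one was not measured.

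Versican, encoded by Vcan (chromosome 13, 89655312 to 89742509, minus strand), is the hyalectan of loose connective tissue. It stood at 0.361, 2.88 and 1.91 CPM in sgNeo and at 2.01, 6.19 and 8.09 CPM in sgLkb1. The lowest sgLkb1 library lay below the highest sgNeo library, so the groups overlapped. The log2 difference was 1.66 ± 0.75 (SE, n = 3 per group), and it ranged from 1.17 without sgNeo replicate 1 to 2.24 without sgNeo replicate 2. Within sgLkb1 the highest library was replicate 3 and not replicate 2 as for Acan. Versican has 30 serine-glycine pairs in 3354 codons, 8.94 per 1000, a density below that 90th percentile. The hyalectans' promoters are shown because these relatives had unlike levels. They are the 250 bases before the RefSeq start, with GC boxes (GGGCGG on either strand) in capitals. The Acan window is chr7:79052976-79053225 on the plus strand and the Vcan window chr13:89742513-89742762 on the minus strand, both in RefSeq's GRCm38.p6 annotation.
Acan promoter: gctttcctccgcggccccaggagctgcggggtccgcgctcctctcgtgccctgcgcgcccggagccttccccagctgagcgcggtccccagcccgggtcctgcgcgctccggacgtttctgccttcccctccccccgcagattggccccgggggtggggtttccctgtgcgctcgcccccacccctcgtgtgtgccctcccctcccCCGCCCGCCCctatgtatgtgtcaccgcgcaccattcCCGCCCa
Vcan promoter: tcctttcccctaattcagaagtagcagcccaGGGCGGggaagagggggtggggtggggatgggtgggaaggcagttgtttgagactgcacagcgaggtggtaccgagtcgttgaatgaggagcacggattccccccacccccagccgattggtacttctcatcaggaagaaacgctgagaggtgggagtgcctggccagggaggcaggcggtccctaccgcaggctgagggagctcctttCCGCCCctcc
The Acan window holds 3 GC boxes at 74.4% GC and the Vcan window 2 at 62.4% GC, where the median promoter had 52.4% GC. Of the 10 genes 9 had a RefSeq promoter entry, Gpc1 having none. A GC box was present in 7 of those 9, and in 32.7% of 32851 promoters of the same length. The cyclic AMP response element TGACGTCA and its TGACG part, searched on both strands, were in 0 of the 9, and in 1.5% and 17.8% of all promoters. Every TGACGTCA contains TGACG. AP-1 (TGANTCA) was found in 1 of the 9 against 6.7%, the SOX motif ACAANG in 1 against 36.3%, and TATAAA in 0 against 12.4%. These are matches of letters in a window and show no binding.

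Aggrecan marks cartilage, so chondrocyte markers were read beside it. The summed level of the 14 listed markers was 24.1, 27.2 and 33.0 CPM in sgNeo and 103, 66.4 and 100.5 CPM in sgLkb1, most of it from Sox9, which epithelial cells also express. Of the 6 markers tested, Sox9 rose by 1.65 ± 0.23 (adjusted p = 0.00299) and Matn3, a matrilin, by 3.56 ± 0.81 (adjusted p = 0.0219). The defining cartilage collagen Col2a1 was between 0 and 0.316 CPM in the 6 libraries, Matn1 and Snorc had 0 counts, and Comp reached at most 0.318 CPM. In order of the 3 sgLkb1 replicates, Acan was highest in replicate 2, where the chondrocyte sum, mostly Sox9, was lowest. The part of cartilage cells in the Acan level was not tested.

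The testicans are small secreted proteoglycans found mainly in the nervous system. Spock3 (chromosome 8, 62951009 to 63357103, plus strand) had 0 counts in each of the 3 sgNeo libraries and 122, 755 and 251 counts in sgLkb1, or 2.99, 19.8 and 7.20 CPM. The sgLkb1 libraries differed by 6.64 times, the widest spread of the 9 genes with counts in all 3 of them. The pooled sgLkb1 level of Spock3 was 247 times a floor of 3 counts over the sgNeo group, and 123 times without sgLkb1 replicate 2. With a sgNeo library left out it was 164 to 165 times the floor. The floor bounds the sgNeo side only, and the spread between sgLkb1 libraries is not covered. A count of 0 in sgNeo allows up to 0.040 CPM over the group.

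Spock2 (chromosome 10, 60106219 to 60135198, plus strand) was low in both groups. It stood at 0.040, 0.405 and 0.598 CPM in sgNeo and at 0.440, 0.472 and 0.803 CPM in sgLkb1. The groups overlapped, and the log2 difference of 0.71 ± 0.85 was smaller than its error. Spock1 (chromosome 13, 57421195 to 57908332, minus strand) had 4 counts in sgLkb1 replicate 1 and 0 in the other libraries. Its pooled sgLkb1 level of 0.035 CPM is under the 0.040 CPM that a count of 0 allows in sgNeo, so a difference was not detectable at this depth. Per kilobase of exon the sgLkb1 mean was 1.65 CPM for Spock3 and 0.103 CPM for Spock2. Its densest serine-glycine window, codons 364 to 393 of 436, holds 2 of its 3 pairs and is shown beside the densest window of Spock1, codons 363 to 392 of 442.
Spock3: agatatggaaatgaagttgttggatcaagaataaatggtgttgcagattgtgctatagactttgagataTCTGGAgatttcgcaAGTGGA
Spock1: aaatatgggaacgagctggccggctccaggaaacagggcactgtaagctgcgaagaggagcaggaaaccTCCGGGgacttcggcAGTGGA

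Neural markers were read beside the testicans. The sum of 12 neuronal, glial and neuroendocrine markers was 84.5 to 85.9 CPM in sgNeo and 85.7 to 90.5 CPM in sgLkb1, most of it from Mbp. Of 6 tested, Snap25, a synaptic vesicle fusion protein, and Calca, the calcitonin gene, rose, by 4.48 ± 0.97 (adjusted p = 0.0181) and 5.40 ± 1.02 (adjusted p = 0.011). Olig2 had 0 counts. Snap25 was highest in sgLkb1 replicate 1 at 18.5 CPM and Calca in replicate 3 at 9.33 CPM, while Spock3 was highest in replicate 2. The part of other cells in the Acan and Spock3 values was not tested, and in bulk RNA fewer cells of a type and less RNA per cell cannot be told apart.

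Syndecans were the most abundant core proteins of this set in both groups. Syndecan-1 (Sdc1, chromosome 12, 8771323 to 8793715, plus strand) is the main syndecan of epithelia and plasma cells. Sdc1 stood at 975, 815 and 984 CPM in sgNeo and at 958, 1151 and 1165 CPM in sgLkb1. The groups overlapped through sgLkb1 replicate 1, with a log2 difference of 0.24 ± 0.18. Syndecan-4 (Sdc4, chromosome 2, 164424247 to 164443887, minus strand), which works with integrins at focal adhesions, stood at 592, 494 and 579 CPM in sgNeo and at 408, 423 and 424 CPM in sgLkb1. The groups did not overlap, the sgLkb1 libraries differed by only 1.04 times, and the log2 difference was -0.41 ± 0.16, given as a description.

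The Sdc4 and Sdc1 differences depended on the unit. On total-count scaling that of Sdc4 was -0.16. As TPM (transcripts scaled to a fixed total) its means were 453 in sgNeo and 476 in sgLkb1 with all exons as the length, 383 and 390 with the longest transcript, and 774 and 720 with the coding length, so the direction differed between lengths. Sdc1 on total-count scaling was at 0.50. As TPM the Sdc1 means were 505 in sgNeo and 837 in sgLkb1 with all exons as the length. They were 496.5 and 797 with the longest transcript, and 820.5 and 1203 with the coding length. The groups did not overlap in Sdc1 TPM at any of these lengths. The ratio of Sdc1 to Sdc4 within a library does not depend on the scaling. Per kilobase of exon it was 1.10, 1.10 and 1.14 in sgNeo and 1.57, 1.82 and 1.84 in sgLkb1, without overlap. The windows with the most pairs hold 3 of 5 pairs in Sdc1 and 3 of 3 in Sdc4.
Sdc1, codons 19 to 48 of 311: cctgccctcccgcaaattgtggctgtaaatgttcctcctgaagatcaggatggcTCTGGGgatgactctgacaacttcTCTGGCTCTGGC
Sdc4, codons 36 to 65 of 198: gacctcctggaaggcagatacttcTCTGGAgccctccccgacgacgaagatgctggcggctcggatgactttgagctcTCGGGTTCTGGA
At 16.1 and 15.2 pairs per 1000 codons, Sdc1 and Sdc4 were the densest of the 10 after Acan.

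The glypicans carry heparan sulfate close to the cell surface and modulate Wnt, Hedgehog and FGF signals. Gpc1 (chromosome 1, 92831645 to 92860779, plus strand) stood at 19.3, 22.0 and 29.8 CPM in sgNeo and at 35.1, 108 and 67.5 CPM in sgLkb1. Every sgLkb1 library was above every sgNeo library, replicate 2 the most. The log2 difference was 1.57 ± 0.38, and 1.15 without sgLkb1 replicate 2. An exon of Gpc1 overlaps one of Ankmy1 on the other strand, and the strand setting of the counting is not given in the sources used here, so reads of the pair cannot be told apart. Gpc4 (chromosome X, 52053021 to 52165252, minus strand) stood at 15.8, 16.0 and 19.2 CPM in sgNeo and at 18.3, 44.9 and 26.0 CPM in sgLkb1. The groups overlapped, with a log2 difference of 0.81 ± 0.31 that was 0.42 without sgLkb1 replicate 2. The glypican windows with the most pairs lie towards the end of the coding sequence.
Gpc1, codons 461 to 490 of 557: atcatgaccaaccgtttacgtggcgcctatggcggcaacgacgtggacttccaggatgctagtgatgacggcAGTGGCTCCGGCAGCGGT
Gpc4, codons 491 to 520 of 557: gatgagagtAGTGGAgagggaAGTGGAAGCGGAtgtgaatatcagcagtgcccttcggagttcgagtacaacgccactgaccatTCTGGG
The Gpc1 window holds 3 pairs, and the Gpc4 window all 4 of that gene's pairs.

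Agrin (Agrn, chromosome 4, 156165290 to 156197488, minus strand) is a basement membrane heparan sulfate proteoglycan that also organises the neuromuscular synapse. It stood at 76.2, 85.2 and 93.5 CPM in sgNeo and at 85.4, 158 and 108 CPM in sgLkb1. The groups overlapped through sgLkb1 replicate 1, with a log2 difference of 0.46 ± 0.23 that was 0.22 without sgLkb1 replicate 2. The coding sequence holds 21 serine-glycine pairs in 2034 codons, of which 5 lie in codons 1045 to 1074.
Agrn: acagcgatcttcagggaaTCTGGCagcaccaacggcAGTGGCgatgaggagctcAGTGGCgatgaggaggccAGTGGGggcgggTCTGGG

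The sgLkb1 libraries were then set in order for each gene. Of the 9 genes with counts in all 3 sgLkb1 libraries, all 9 were lowest in replicate 1, 5 were highest in replicate 2 (Acan, Spock3, Gpc1, Gpc4 and Agrn) and 4 in replicate 3 (Vcan, Spock2, Sdc1 and Sdc4). Of the 15761 tested genes with counts in all 3 sgLkb1 libraries, 40.4% were lowest in replicate 1, 33.2% highest in replicate 2 and 28.2% highest in replicate 3. The highest-to-lowest ratio within sgLkb1 was 1.04 for Sdc4 and 1.22 for Sdc1, 1.82 to 3.08 for Spock2, Agrn, Gpc4 and Gpc1, and 4.03 to 6.64 for Vcan, Acan and Spock3. Genes whose levels ran most like 4 of the members over the 6 libraries were found by the root mean square difference of centred log2 CPM among 10418 genes. For Acan these were Osbp2 (0.59) and Tmprss6 (0.67), for Vcan Pstpip1 (0.47) and Ncs1 (0.50), for Spock2 Scara3 and Mst1r (0.32 and 0.33), and for Agrn Ubtd2 and Hyal2 (both 0.065). Osbp2, for example, was at 0.160, 0.405 and 0.080 CPM in sgNeo and at 6.58, 38.7 and 20.1 CPM in sgLkb1.

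The makeup of the core protein transcripts was then read per length, as TMM-scaled CPM per kilobase of exon, over 37 core proteins. They are the members and listed relatives outside the list of serglycin and part-time proteoglycans. They are called full-time here, although whether each carries a chain was not measured. Their sum was 575, 481 and 554 in sgNeo and 487, 603 and 633 in sgLkb1, and the groups overlapped. Sdc1 and Sdc4 made up 84.9 to 87.6% of it in sgNeo and 84.6, 77.7 and 74.6% in sgLkb1 replicates 1 to 3. The Sdc1 share was 45.2% ± 1.18 in sgNeo and 50.1% ± 1.67 in sgLkb1, and the Sdc4 share 40.6% ± 0.32 and 28.9% ± 3.53 (SD, n = 3). The shares of each syndecan did not overlap between groups. With coding length the mean shares were 46.1 and 52.5% for Sdc1 and 43.5 and 31.8% for Sdc4. With the longest transcript as the length the Sdc1 shares overlapped, with a highest sgNeo share of 48.9% and a lowest sgLkb1 share of 48.7%. The 10 members together were 88.1 to 91.8% in sgNeo and 89.6, 87.9 and 80.7% in sgLkb1. In sgLkb1 replicate 3 the remainder was largest, and Dcn, a fibroblast proteoglycan, made up 5.39% there against at most 0.585% in the other 5 libraries.

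Per kilobase the order of the members' mean levels in sgNeo was Sdc1 (243), Sdc4 (218), Agrn (9.15), Gpc4 (6.41), Gpc1 (4.59), Vcan (0.119), Spock2 (0.063), Acan (0.0054), with Spock3 and Spock1 at 0. In sgLkb1 it was Sdc1 (287), Sdc4 (164), Gpc1 (13.6), Agrn (12.6), Gpc4 (11.2), Acan (1.82), Spock3 (1.65), Vcan (0.376), Spock2 (0.103) and Spock1 (0.0039). Gpc1, Agrn and Gpc4 in sgLkb1 had SDs of 7.07, 3.99 and 5.16, and Acan and Spock3 had SDs of 1.13 and 1.45. Within each sgLkb1 library Agrn was above Gpc4. Gpc1 was below both in replicate 1 and above both in replicates 2 and 3. Spock3 was above Acan only in replicate 2. The ratio of Gpc1 to Gpc4 within a library was 0.627 to 0.798 in sgNeo and 0.988 to 1.33 in sgLkb1. Among the 37, Acan moved from rank 31 to rank 13 and Gpc1 from rank 9 to rank 5. When the list of serglycin and part-time proteoglycans was included, as first planned, Cd74 dominated the sum. The members' share was then 10.5 to 12.4% in sgNeo and 31.4 to 46.6% in sgLkb1. With coding length in place of exon length these shares were 18.9 to 21.9% and 44.5 to 60.1%.

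**Figure D2:**
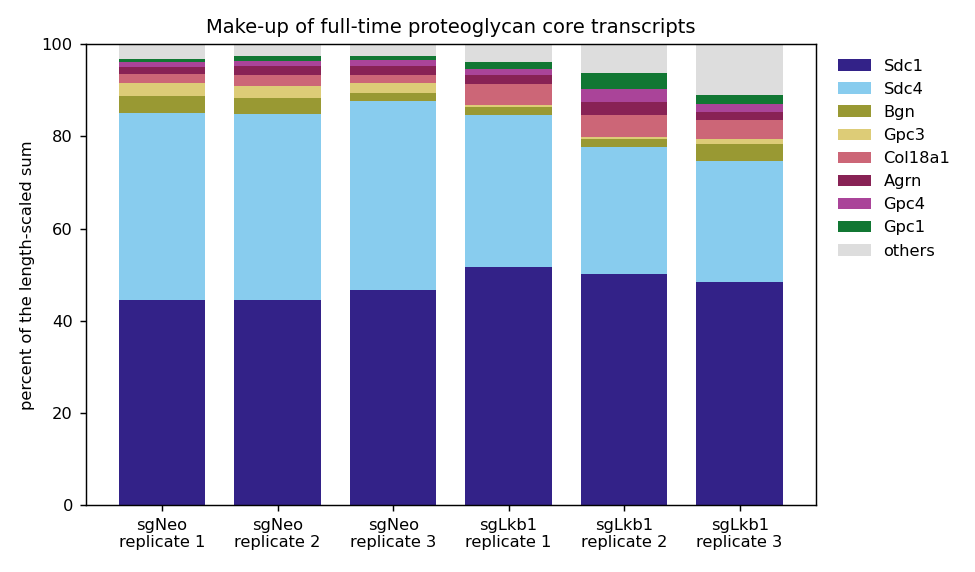
Percent of the length-scaled transcript sum over 37 full-time proteoglycan core proteins (vertical axis) in each library, with 8 core proteins that the text names drawn separately and the rest as others. Sdc1 (dark blue) and Sdc4 (light blue) fill most of every bar, the Sdc4 share is 40.6% on average in sgNeo and 28.9% in sgLkb1, and the share of others is largest in sgLkb1 replicate 3.

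Of the other 38 core proteins 30 were tested, 6 rose and 3 fell, beside 7.05% and 8.60% of all genes tested, and their median log2 difference was 1.15 beside 0.018 over all genes tested.  Sdc3, the neural syndecan, rose from 4.69, 2.88 and 7.29 CPM to 10.5, 53.3 and 40.8 CPM (2.82 ± 0.59, adjusted p = 0.0164). Sdc2 was lower in each sgLkb1 library, from 23.3, 23.2 and 21.8 to 13.8, 7.35 and 15.6 CPM, and missed the threshold (adjusted p = 0.0643), which it passed with DESeq2 (0.0368). Gpc3, an oncofetal glypican, fell from 43.7, 34.9 and 34.7 CPM to 5.85, 6.51 and 16.6 CPM (-1.97 ± 0.39, adjusted p = 0.0135). Within a library the level of Gpc1 over that of Gpc3, per kilobase, was 0.231, 0.328 and 0.448 in sgNeo and 3.13, 8.65 and 2.12 in sgLkb1. Gpc2 was called at 2.50 ± 0.69 (adjusted p = 0.0445), but 49.7% of its 50-base words are shared with Gm43720, so its level is uncertain.

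Of the 3 other basement membrane proteoglycans 2 rose, Col18a1 and Hspg2. Col18a1, the collagen that releases endostatin, went from 78.6, 79.6 and 66.5 CPM to 153, 206 and 186 CPM (1.28 ± 0.17, adjusted p = 0.00256). Hspg2, which encodes perlecan, went from 9.83, 6.40 and 10.3 CPM to 16.1, 20.6 and 24.2 CPM (1.20 ± 0.26, adjusted p = 0.018). Whether Agrn differed from either in its response was not tested. Of the part-time proteoglycans, the receptor phosphatase Ptprz1 rose (2.31 ± 0.47, adjusted p = 0.0149), as did Esm1, endocan (2.90 ± 0.63, adjusted p = 0.019). Nrp1, a semaphorin and VEGF co-receptor, fell from 310, 265 and 258 CPM to 53.9, 63.1 and 67.7 CPM (-2.17 ± 0.17, adjusted p = 0.000453). Cd74, the MHC class II invariant chain, fell from 5739, 5706 and 7069 CPM to 1060, 709 and 1514 CPM (-2.50 ± 0.30, adjusted p = 0.00182). The call of Sdc3 was lost without sgNeo replicate 1 or 2 (highest adjusted p 0.0715), that of Hspg2 without sgNeo replicate 1 or 2 or sgLkb1 replicate 3 (0.0715), and that of Ptprz1 without any sgNeo library (0.0607). Esm1 lost it without sgNeo replicate 2 or 3 or sgLkb1 replicate 2 or 3 (0.0839), and Gpc2 without any library but sgLkb1 replicate 1 (0.173). Fold values moved by over 1.5 times for Gpc3, at -2.62 without sgLkb1 replicate 3, for Esm1, at 3.53 without sgNeo replicate 1, for Ptprz1, at 1.61 without sgLkb1 replicate 1, and for Gpc2, at 1.77 without sgLkb1 replicate 2. The count of 9 calls was 4 without sgNeo replicate 2, and 17 with no count filter, 18 with DESeq2 and 15 with total-count scaling.

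**Figure D3:**
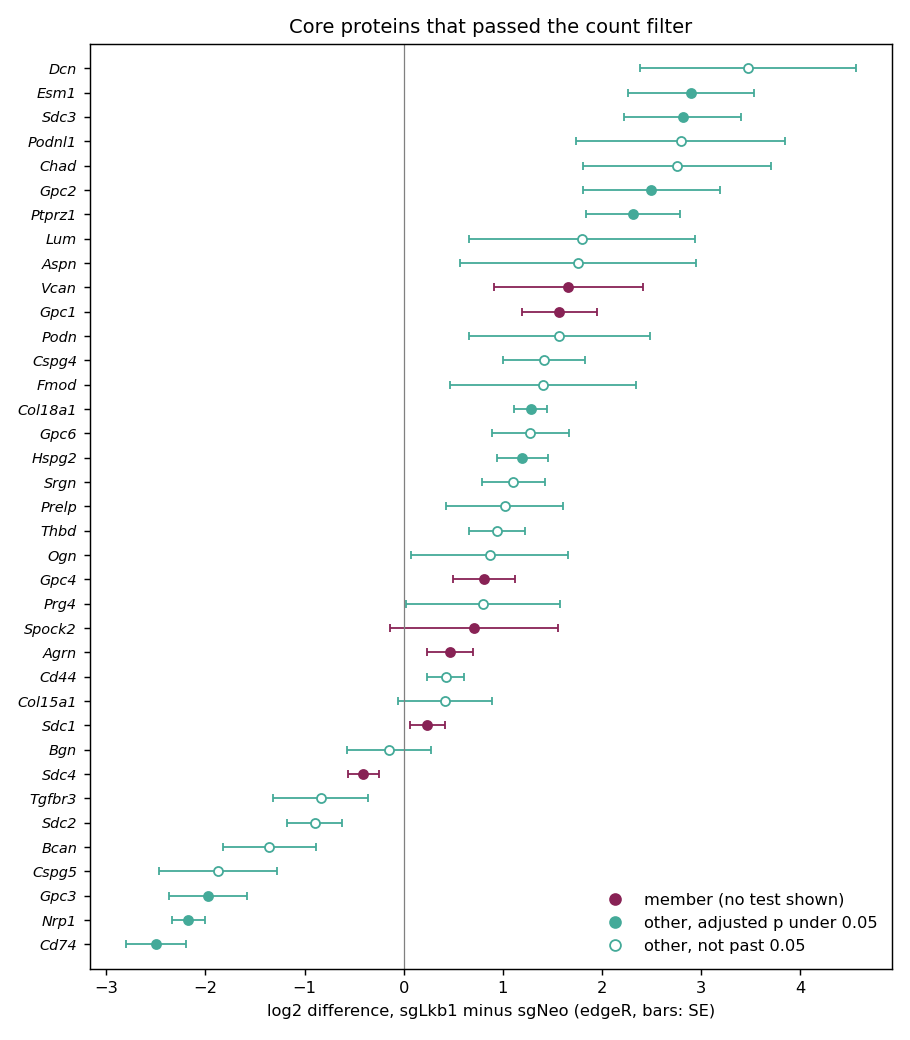
Log2 difference of sgLkb1 minus sgNeo with its SE (horizontal axis, edgeR) for the core proteins that passed the count filter, with 7 of the members in purple, called relatives as filled and others as open green points. Acan and Spock3 are left out because they had 3 counts or fewer in sgNeo; Sdc1 and Sdc4 lie on either side of 0 at 0.24 and -0.41.

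Of the 16 small leucine-rich proteoglycans listed 10 were tested, and 0 were called by edgeR. An unadjusted p under 0.05 was reached by 3 of them, DESeq2 called 2, and the median log2 difference was 1.66. The widest was decorin, Dcn, at 12.9, 4.05 and 3.70 CPM in sgNeo and at 16.6, 13.6 and 199 CPM in sgLkb1, with a log2 difference of 3.47 ± 1.09 (adjusted p = 0.067, and 0.0375 with total-count scaling), so that 1 library, sgLkb1 replicate 3, held most of it. Bgn, biglycan, was the third highest per kilobase in sgNeo among the 37 full-time core proteins, and its groups overlapped, at 57.8 to 133 and 52.6 to 145 CPM. Fibroblast and smooth muscle markers stood apart in the same library. Their sum was 134, 50.9 and 51.6 CPM in sgNeo and 200, 291 and 1242 CPM in sgLkb1, and 4 of 9 tested rose, Col1a1, Col1a2, Col3a1 and Pdgfra. The calls of Col1a1 (2.95 ± 0.76, adjusted p = 0.0352) and Col3a1 (3.44 ± 0.85, adjusted p = 0.0298) were lost as libraries were left out, Col1a1 without sgNeo replicate 2 or 3 or sgLkb1 replicate 3 (highest adjusted p 0.126) and Col3a1 without any sgNeo library (0.116). Without sgLkb1 replicate 3 their log2 differences were 1.81 and 1.80. Vcan, which fibroblasts also make, was highest in that library too. Its log2 difference was 1.66 with all libraries and 1.23 without sgLkb1 replicate 3. The part of fibroblasts in the Vcan level was not tested.

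The other marker lists moved as follows. The epithelial sum was 75390 to 88880 CPM in sgNeo and 16150 to 20890 CPM in sgLkb1, through Sftpc, the alveolar type 2 surfactant gene, which fell by 3.13 ± 0.31 (adjusted p = 0.000885). Of the 8 epithelial markers tested 2 rose, Epcam and Krt19, and 2 fell, Sftpc and Nkx2-1. The calls of Epcam and Nkx2-1 were lost without sgNeo replicate 1 or 2, that of Nkx2-1 also without sgNeo replicate 3 or sgLkb1 replicate 3, and that of Krt19 without sgNeo replicate 2 (highest adjusted p 0.0589, 0.0746 and 0.0509). The leukocyte sum was 32.0 to 39.9 CPM and 34.0 to 72.6 CPM, with 0 of 7 tested called by edgeR, although 4 had an unadjusted p under 0.05 and 4 were called by DESeq2. The mesothelial sum was 175 to 430 CPM and 832 to 1424 CPM, mainly Msln, with 2 of 7 called higher, Msln and Aldh1a2, of which Msln lost its call without sgNeo replicate 2 (adjusted p 0.0561). The endothelial sum was 265 to 309 CPM and 159 to 312 CPM, with Cdh5, Kdr and Emcn rising and Esam falling of 10 tested. Esam had the highest mean level of that list, and its log2 difference ran from -2.38 to -1.70 as libraries were left out. The part of these cells in the members' values was not tested.

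**Figure D4:**
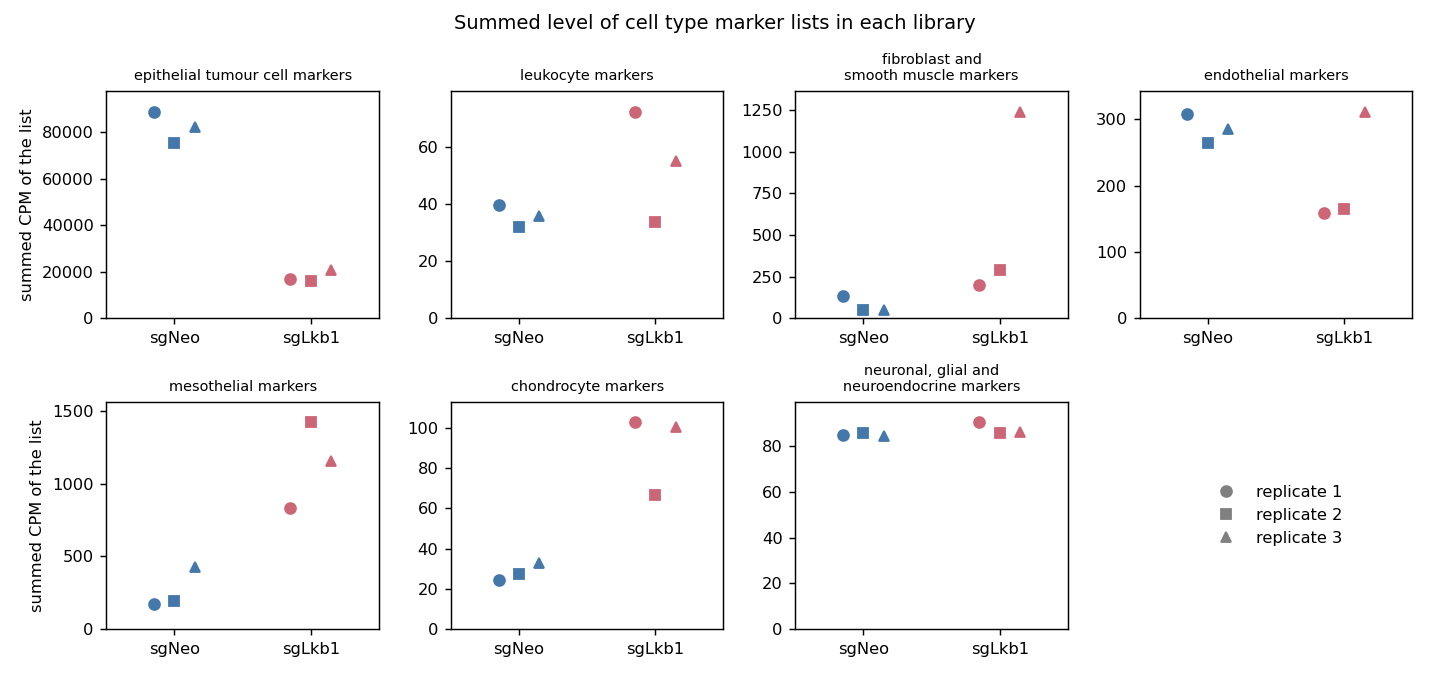
Summed TMM-scaled CPM of each cell type marker list (vertical axes, linear from 0, different for each list) in the 6 libraries, with sgNeo in blue, sgLkb1 in red and marker shapes for the replicate number. The fibroblast and smooth muscle sum is 1242 CPM in sgLkb1 replicate 3 and 291 CPM or less elsewhere, and the leukocyte sum is at most 72.6 CPM.

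The chains that these cores carry are built, sulfated and degraded by 70 listed genes, of which 61 were tested. Of these 8 rose and 6 fell, beside the same 7.05% and 8.60%, with a median of 0.089, near that of all genes tested. The 13 tested degradation genes among them held 1 of the rises and 3 of the falls. Xylt2, the xylosyltransferase with the higher level, had a log2 difference of 0.24 ± 0.27 (adjusted p = 0.603). Ext2, a heparan sulfate polymerase, overlapped between groups and stood at 65.3, 74.3 and 81.7 CPM in sgNeo and 49.2, 72.3 and 74.8 CPM in sgLkb1. Of the 9 linker genes tested 1 rose, Uxs1, which makes UDP-xylose (0.99 ± 0.26, adjusted p = 0.035).

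Of 18 tested heparan sulfate genes 4 rose and 2 fell. The 2 that fell were the 3-O-sulfotransferases Hs3st3a1 and Hs3st3b1, enzymes that add the rare sulfate group at the third position of glucosamine. Hs3st3b1 stood at 29.0, 33.0 and 30.9 CPM in sgNeo and at 2.99, 2.23 and 3.76 CPM in sgLkb1, with no overlap (-3.37 ± 0.24, adjusted p = 0.000354). Hs3st3a1 stood at 30.1, 22.0 and 20.4 CPM in sgNeo and at 1.03, 3.44 and 0.631 CPM in sgLkb1 (-3.82 ± 0.59, adjusted p = 0.00489), and at -4.82 without sgLkb1 replicate 2. These paralogs share 10.7% and 8.56% of their 50-base words, so part of the reads could be assigned to either. Hs6st2, a 6-O-sulfotransferase, rose from between 0 and 0.119 CPM in sgNeo to 0.881, 1.97 and 1.84 CPM in sgLkb1 (4.77 ± 0.91, adjusted p = 0.0116). Ndst3, an N-deacetylase and N-sulfotransferase, rose from at most 0.199 CPM to 0.807, 5.90 and 1.58 CPM (4.20 ± 0.88, adjusted p = 0.0165). In sgNeo replicates 1 to 3 the counts were 0, 1 and 3 for Hs6st2 and 3, 3 and 5 for Ndst3. Both genes passed the count filter through their sgLkb1 libraries, so their calls and log2 differences rest on few sgNeo counts. The epimerase Glce and the sulfatase Sulf2, singled out after their values were seen, also rose, by 0.77 ± 0.19 (adjusted p = 0.029) and 0.82 ± 0.22 (adjusted p = 0.0372).

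Of 14 tested chondroitin and dermatan sulfate genes 1 rose and 1 fell. Chst11, the chondroitin 4-O-sulfotransferase, rose from between 0.040 and 0.441 CPM in sgNeo to 2.06, 4.25 and 3.96 CPM in sgLkb1 (3.81 ± 0.74, adjusted p = 0.012), and Dse, the dermatan sulfate epimerase, fell by 1.02 ± 0.29 (adjusted p = 0.049, and 0.137 with total-count scaling). Csgalnact1, which starts the chondroitin chain, was at 1.32, 3.28 and 1.59 CPM in sgNeo and at 3.16, 10.6 and 4.96 CPM in sgLkb1 and missed the threshold (adjusted p = 0.0914), which it passed with DESeq2 (0.0129). Papss2, 1 of 7 tested genes of sulfate supply, was called, and it makes the sulfate donor PAPS (1.30 ± 0.34, adjusted p = 0.0373).
Of 13 tested degradation genes Hpse, heparanase, rose (1.28 ± 0.22, adjusted p = 0.00788). The lysosomal enzymes Idua (-1.36 ± 0.18, adjusted p = 0.00256) and Hgsnat (-0.81 ± 0.13, adjusted p = 0.00645) were among those that fell.

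Many of these calls were lost when a library was left out. Ndst3 lost its call without any sgNeo library or sgLkb1 replicate 2 (highest adjusted p 0.0755), Hs6st2 without sgNeo replicate 2 (0.0652), and Glce without any sgNeo library or sgLkb1 replicate 2 (0.126). Sulf2 lost it without any library but sgLkb1 replicate 2 (0.126), and Dse without any library but sgLkb1 replicate 1 (0.156). Uxs1 and Papss2 lost it without sgNeo replicate 1 or 2 or sgLkb1 replicate 1 or 2 (0.137 and 0.128). Hs3st3a1, Hs3st3b1, Chst11, Hpse, Idua and Hgsnat kept their calls as each library was left out. Fold values moved by over 1.5 times for Ndst3, at 3.02 without sgLkb1 replicate 2, for Hs6st2, at 6.02 without sgNeo replicate 3, and for Chst11, at 4.57 without sgNeo replicate 1. The count of 14 calls was 6 with sgNeo replicate 2 left out, and 8 with either sgNeo replicate 1 or sgLkb1 replicate 2 left out.

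**Figure D5:**
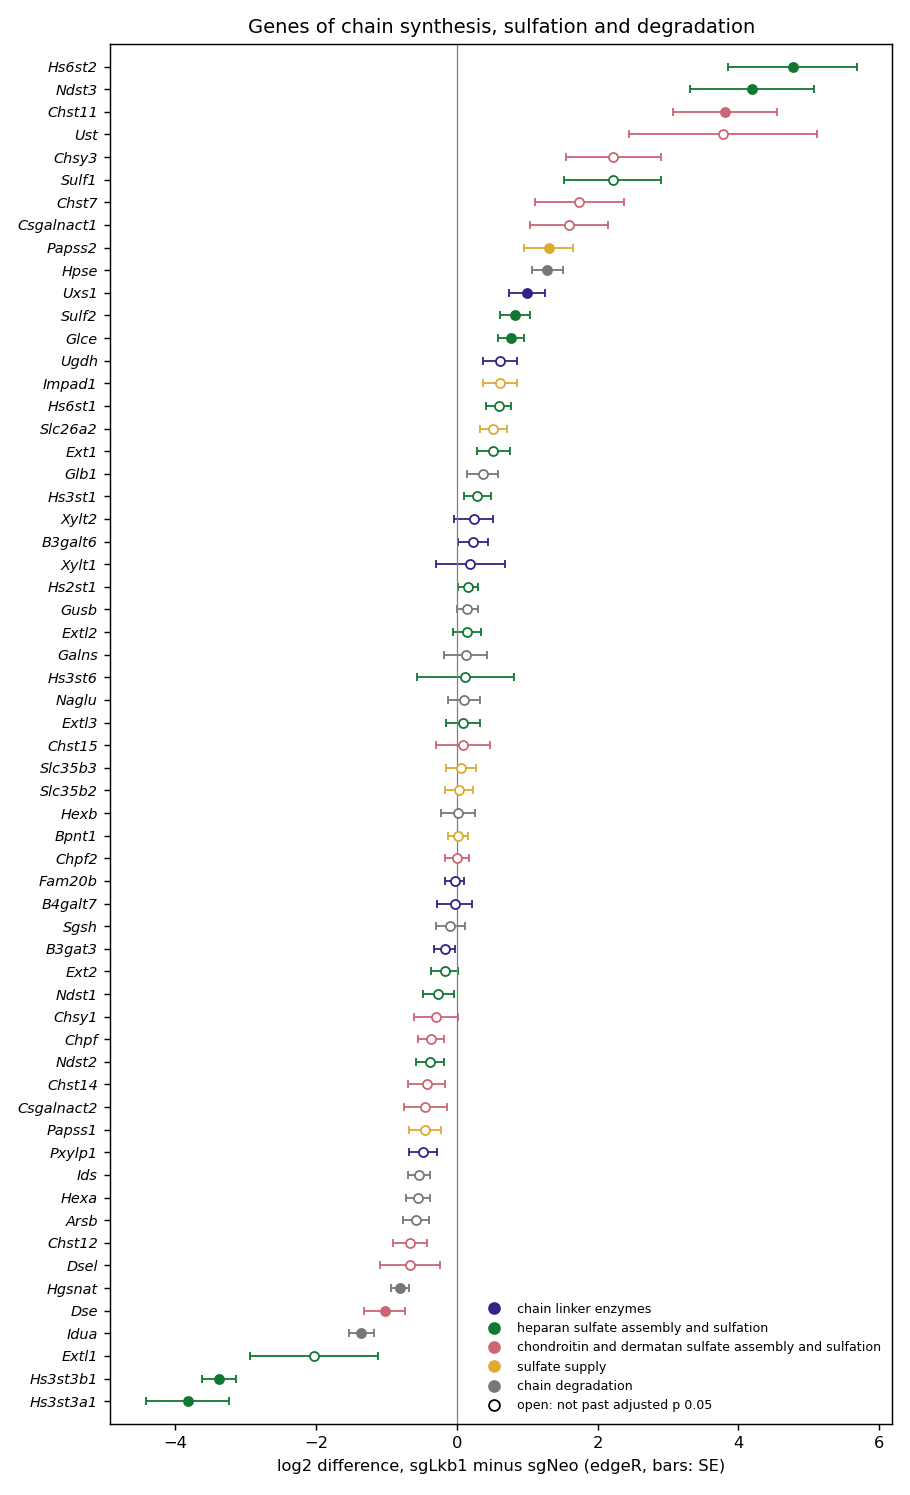
Log2 difference of sgLkb1 minus sgNeo with its SE (horizontal axis, edgeR) for tested genes of chain synthesis, sulfation and degradation, coloured by list, filled where the adjusted p was under 0.05. Most points lie near 0, and Hs3st3a1 and Hs3st3b1 stand lowest at -3.82 and -3.37.

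The partners of the core proteins include hyaluronan, which binds aggrecan and versican, the proteases that cleave cores, and the receptors of agrin and the glypicans. Of 44 listed 33 were tested, 8 rose and 5 fell, again beside 7.05% and 8.60%, with a median of 0.51. Has2, a hyaluronan synthase, rose from 0.441, 0.324 and 2.35 CPM to 9.59, 34.9 and 14.5 CPM (4.24 ± 0.82, adjusted p = 0.0118), and Tnfaip6, which transfers heavy chains to hyaluronan, was called at 3.89 ± 1.03 (adjusted p = 0.0383). Itih1, a source of those heavy chains, fell by 2.17 ± 0.43 (adjusted p = 0.0126). Like Acan, Has2 was highest in sgLkb1 replicate 2 and lowest in replicate 1.

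Of 11 proteases tested 4 rose and 2 fell. Adamts1, which cleaves versican and aggrecan, fell from 226, 233 and 196 CPM to 34.9, 60.9 and 62.6 CPM (-2.05 ± 0.24, adjusted p = 0.00162). Adamts4, another aggrecanase, was called in the other direction (2.58 ± 0.54, adjusted p = 0.0158), at 1.20, 0.769 and 1.08 CPM in sgNeo and 3.40, 4.04 and 10.9 CPM in sgLkb1. Its level is uncertain, since the strand setting of the counting is not given in the sources used here. Mmp7, matrilysin, which sheds syndecan-1, rose from 0.160, 0.122 and 0.797 CPM to 10.5, 88.1 and 30.3 CPM (6.88 ± 0.99, adjusted p = 0.00367). Mmp14, a membrane protease, rose from 73.5, 92.1 and 91.5 CPM to 245, 421 and 370 CPM (2.01 ± 0.23, adjusted p = 0.00145), and the sheddase Adam10 rose from 179, 188 and 163 CPM to 581, 433 and 350 CPM (1.36 ± 0.21, adjusted p = 0.00489). Mmp15, singled out after its values were seen, fell by 0.89 ± 0.17 (adjusted p = 0.0123, and 0.0731 with total-count scaling).

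Of 8 receptors and partners tested 2 rose and 2 fell. Lrp4, the receptor through which agrin activates MuSK, fell from 5.70, 5.14 and 5.26 CPM to 1.69, 1.39 and 2.01 CPM (-1.66 ± 0.33, adjusted p = 0.0131). Notum, an esterase that binds glypicans and inactivates Wnt proteins, fell from 4.01, 1.66 and 2.75 CPM to 0.294, 0.210 and 0.517 CPM (-3.04 ± 0.58, adjusted p = 0.0116). Sdcbp2, which encodes syntenin-2, rose from 77.3, 57.1 and 89.1 CPM to 165, 169 and 169 CPM (1.17 ± 0.19, adjusted p = 0.0054), and Tnc, tenascin-C, rose by 2.93 ± 0.79 (adjusted p = 0.0412). Calls were lost by Tnfaip6 without any sgNeo library or sgLkb1 replicate 3 (highest adjusted p 0.134), by Adamts4 without sgNeo replicate 2 or 3 (0.0732), by Mmp15 without sgNeo replicate 2 (0.0571), by Lrp4 without sgNeo replicate 1 or 2 (0.0526), by Notum without sgNeo replicate 1 (0.0529) and by Tnc without any library but sgLkb1 replicate 1 (0.146). Fold values moved by over 1.5 times for Has2 (5.66 without sgNeo replicate 3 and 3.56 without sgLkb1 replicate 2), Mmp7 (8.21 and 5.85 likewise), Tnc (1.72 without sgLkb1 replicate 2), Tnfaip6 (2.21 without sgLkb1 replicate 3) and Adamts4 (1.86 without sgLkb1 replicate 3). The count of 13 calls was 8 without sgNeo replicate 2.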

How the data were processed

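Lung tissue was digested enzymatically and sorted for GFP without CD45, and Nextera XT libraries were made from PureLink RNA, per the labels' protocols. The deposited values are expected counts for each gene. Their tools, per the submitters' processing notes, were FastQC, STAR, RSEM and DESeq2 on GRCm38, with no versions. RSEM divides reads shared between genes. Its strand setting and annotation release were not given in the sources used here. These values were rounded.

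Genes were filtered with filterByExpr (15978 of 55487 kept), scaled with TMM and tested with edgeR 4.0.16 (R 4.3.3, glmQLFit and glmQLFTest, two-sided, genotype as the only term, Benjamini-Hochberg over all genes tested, threshold 0.05). All adjusted p-values are from this test, and ± after a log2 difference is its SE. CPM values refer to TMM-scaled sizes. A floor is 3 counts over a group. The intervals and floors cover counting error only, and not the spread between libraries. No molecular identifiers were used here, so copies of the same molecule were not told apart. Exon length, coordinates and coding sequences are from GENCODE vM21, in which 55141 table genes were found by ID; promoters are from RefSeq. Scripts were tested on simulated data. Per-list named genes were the first 2 measured and up to 4 with the lowest p, with the first and the highest of each marker list; likeness was sought for Acan, Vcan, Spock2 and Agrn among genes of at least 5 CPM. The members and lists were chosen with earlier results of these data known. Other settings tried were RLE scaling, no filter, DESeq2 1.42.0, a minimum of 1 CPM in 3 libraries, a replicate block and leaving out each library. Total-count scaling, TPM and shares without the list of serglycin and part-time proteoglycans were added after seeing the data. Some genes counted in the lists are not reported here by name.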

Additional observations from a re-analysis of the deposited data

How the results depend on the processing

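Of 2501 genes called, other settings gave 1129 to 2780 as each library was left out, 3440 with no filter, 3373 with DESeq2 and 3087 with total-count scaling. The 3 members called became 5 with no filter and 2 to 5 as libraries were left out, the 9 other core proteins 17 with no filter, 18 with DESeq2, 15 with total-count scaling and 4 to 12 as libraries were left out, and, as libraries were left out, the 14 chain genes 6 to 17 and the 13 partners 8 to 13. With no filter these were 21 and 18, and with DESeq2 18 and 16. Among uncalled genes named, 4 changed sign. Bgn was at -0.15 and at 0.16 with total-count scaling (-0.75 to 0.16 as libraries were left out), B3gat3 at -0.17 and 0.076, Ext2 at -0.17 and 0.085 (-0.30 to 0.0062), and Ptprc at -0.11 and 0.11 (-0.56 to 0.15). The cause was not tested. The replicate numbers are shared between groups. Deviations of same-numbered libraries correlated at 0.13, -0.021 and 0.11, and those of differently numbered libraries at -0.17 to 0.088. Whether the numbers pair the libraries cannot be told from these values. With a replicate block 2880 genes were called, with 4 members, 11 other core proteins, 17 chain genes and 15 partners. The block took the uncalled Sdc2 and Csgalnact1 past the threshold (adjusted p 0.0465 and 0.0252) and took Col1a1, Col3a1, Dse, Gpc2, Papss2, Tnc and Uxs1 out (0.0508 to 0.0919). Leaving out sgNeo replicate 2 gave the fewest calls over all genes. Depth limits Spock1 and the sgNeo levels of Acan and Spock3, which rest on 3 counts or fewer. The sgNeo levels of Hs6st2, Ndst3, Chst11 and Mmp7 were low too, so their log2 differences are uncertain.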
